A study of Mus musculus with 5 samples.

Results

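The chaperone, heat shock and chaperonin genes of embryonic pharyngeal arch tissue were examined across 5 wild-type samples. Members were taken by gene symbol alone: every probe set annotated with exactly 1 gene whose symbol names an HSP70, HSP90, HSP60, HSP10, HSP110 or small heat shock protein, a J protein (Dnaja, Dnajb or Dnajc), a subunit of the chaperonin CCT, a prefoldin subunit, a BAG protein or St13. This gave 161 probe sets of 79 genes, out of 22626 probe sets and 12393 genes. All samples formed 1 group, wild-type embryos at E10.5 from 129P2/OlaHsd mice crossed back to C57BL/6 for 2 generations, with no mutant, treatment or other stage to set them against. Each sample was its own dissection of the arch region, which the labels describe as containing second heart field cells. From each, 10 ng of total RNA was amplified and hybridised to an Affymetrix Mouse Genome 430A array.

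Chaperones bind unfolded or partly folded proteins and let them reach their native state. HSP70 does so in cycles of ATP binding and hydrolysis: J proteins deliver clients and start hydrolysis, and exchange factors such as the BAG proteins and HSP110 release the nucleotide. HSP90 acts later on kinases and receptors, while prefoldin hands newly made actin and tubulin to the ring-shaped CCT, which closes around them. Heat shock factor raises a subset of these genes under stress through heat shock elements in their promoters, and unfolded protein in the endoplasmic reticulum (ER) raises the ER chaperones through an ER stress response element.

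Promoters that carry these elements are shown because heat-inducible and ER members are known to respond to stress through them. Windows of 300 bases, 250 before and 50 from each annotated transcription start on (RefSeq, GRCm38.p6), were at hand for 65 of the 79 genes. The 250 bases are the commonest offset to the annotated gene start, found in 37 of 48 members with 1 window. A gene with several windows was counted as holding an element where any of them did. A heat shock element was searched as alternating units GAA and TTC with 2 bases of any kind between units, in 3 units or in 2, starting with either unit. The ER stress response element was searched as CCAAT and CCACG with 9 bases of any kind between them. Both strands were read and overlapping matches were counted, so each 3-unit match also holds 2-unit ones. In the lines below capitals mark the matches.
Hspe1, 3-unit heat shock element (chr1:55087898-55088197, plus strand): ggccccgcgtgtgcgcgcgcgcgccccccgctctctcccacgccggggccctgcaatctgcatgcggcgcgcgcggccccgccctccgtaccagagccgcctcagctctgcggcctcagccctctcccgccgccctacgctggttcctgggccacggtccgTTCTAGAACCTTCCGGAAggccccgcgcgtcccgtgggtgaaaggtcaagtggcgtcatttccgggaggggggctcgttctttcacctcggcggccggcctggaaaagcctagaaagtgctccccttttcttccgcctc
Hsph1, 3-unit heat shock element (chr5:149636287-149636586, minus strand): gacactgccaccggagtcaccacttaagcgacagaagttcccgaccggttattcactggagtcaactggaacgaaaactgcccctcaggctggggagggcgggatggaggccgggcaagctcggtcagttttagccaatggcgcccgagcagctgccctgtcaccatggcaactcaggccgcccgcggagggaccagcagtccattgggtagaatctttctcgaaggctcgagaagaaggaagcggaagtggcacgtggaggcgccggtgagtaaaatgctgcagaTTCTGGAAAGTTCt
Hspa1b, 2-unit heat shock element (chr17:34959189-34959488, minus strand): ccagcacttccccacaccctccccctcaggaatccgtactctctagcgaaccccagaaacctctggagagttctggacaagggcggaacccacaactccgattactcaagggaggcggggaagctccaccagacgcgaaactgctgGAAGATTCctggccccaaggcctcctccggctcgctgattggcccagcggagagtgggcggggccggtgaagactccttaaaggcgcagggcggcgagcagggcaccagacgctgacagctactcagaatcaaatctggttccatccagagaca
Hspa5, ER stress response element (chr2:34771840-34772139, plus strand): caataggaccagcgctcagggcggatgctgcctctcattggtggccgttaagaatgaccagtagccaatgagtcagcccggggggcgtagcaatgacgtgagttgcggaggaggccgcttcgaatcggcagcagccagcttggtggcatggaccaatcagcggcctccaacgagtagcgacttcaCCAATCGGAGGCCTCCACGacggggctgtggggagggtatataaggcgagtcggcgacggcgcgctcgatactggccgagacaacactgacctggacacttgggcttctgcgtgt
Hsp90b1, ER stress response elements (chr10:86705395-86705694, minus strand): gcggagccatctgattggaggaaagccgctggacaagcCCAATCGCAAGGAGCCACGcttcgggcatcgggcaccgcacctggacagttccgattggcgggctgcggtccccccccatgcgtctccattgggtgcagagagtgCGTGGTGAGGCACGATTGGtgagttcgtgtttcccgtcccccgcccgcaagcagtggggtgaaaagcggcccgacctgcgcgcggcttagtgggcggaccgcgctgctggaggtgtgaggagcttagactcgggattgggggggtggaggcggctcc
The Hspe1 window held 2 overlapping 3-unit matches at -89 to -77 and -84 to -72 from the start. Its neighbour Hspd1 is read from the other strand, and the annotated span of Hspd1 (chr1:55077833-55088243) overlaps the first 96 bases of Hspe1 (chr1:55088148-55091317). In Hsph1 the match lay at 37 to 49 bases into the transcript of this window, in Hspa1b at -104 to -97, and in Hspa5 at -65 to -47. Hsp90b1 held its matches at -212 to -194 and -107 to -89.

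The 3-unit heat shock element was found in 4 of 65 member genes (6.15%), namely Hspe1, Hspd1, Hsph1 and Dnajb6, and in 0.662% of 27025 genes with a window. The 2-unit form was present in 11 of the 13 members with a window from a list of 14 heat-inducible genes, in 7 of the 52 other members, and in 17.0% of all genes. The 11 were Bag3, Dnaja1, Dnaja4, Dnajb4, Hspa1a, Hspa1b, Hspb1, Hspb8, Hspd1, Hspe1 and Hsph1. The ER stress response element was found in 3 of the 9 ER members with a window, Hspa5, Hsp90b1 and Dnajc3, in 0 of the 56 other members and in 0.137% of all genes. A match describes letters in a window and shows no binding. Windows for Hspa8, Hsp90aa1, Hspa9, Cct4 and 10 further members were not used here.

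The median signal per array ran from 28.1 to 32.2 scaled units. The background level of each array, the 95th percentile over 242 probe sets of gene families known from tissues that an arch does not contain, was 17.5, 15.9, 18.1, 22.8 and 23.3 in replicates 1 to 5. Replicate 4 stood apart in its sex-linked genes, with Xist at 916, against 26.3 or less elsewhere. The Y-linked Eif2s3y was at 20.1 in replicate 4 and at 769 to 968 elsewhere. Neuron and red cell markers were lower in replicate 4 too. Their medians there were -0.53 and -0.63 log2 units from the mean of the samples, over 9 and 7 genes. Sex and other traits of this 1 sample cannot be told apart. Of 12 arch mesenchyme and second heart field markers, 9 were above background, Isl1, Prrx1, Twist1 and Crabp1 among them, while Tbx1, Dlx5 and Hand2 were not. The tissue was measured whole, so fewer cells of a type and less RNA per cell cannot be told apart. Array signals depend on how well a probe set binds, so levels of different genes are not ranked.

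Of the 79 member genes, 61 (77.2%) were above background, compared with 54.0% of all 12393 genes (limma intercept test, one-sided, Benjamini-Hochberg adjusted p below 0.05). Among member probe sets 109 of 161 passed, against 50.1% of all probe sets. These shares are descriptions and were not tested against each other. Each gene was read on its brightest probe set, and 45 of the 79 members had several, against 4956 of the 12393 genes. With the mean of all probe sets 69.6% of members were called, against 47.9% of all genes. With casein kinases and interferon receptors added to the background set the level rose, and 45 members were called (57.0%), against 32.0% of all genes. All 4 measured prefoldin subunits, both mitochondrial chaperonin genes, both HSP90 genes and 8 of 9 CCT genes passed. So did 9 of 12 HSP70 and HSP110 genes, 5 of 7 BAG genes with St13, and 29 of 37 J protein genes. Genes with a small heat shock protein symbol were the family with the lowest share, 2 of 6. The 2 were Hspb8 and Hspb11, and Hspb11 encodes the cilium transport protein IFT25. By place in the cell, 9 of 10 ER members, 7 of 7 mitochondrial members and 40 of 55 cytosolic members were called.

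**Figure D1:**
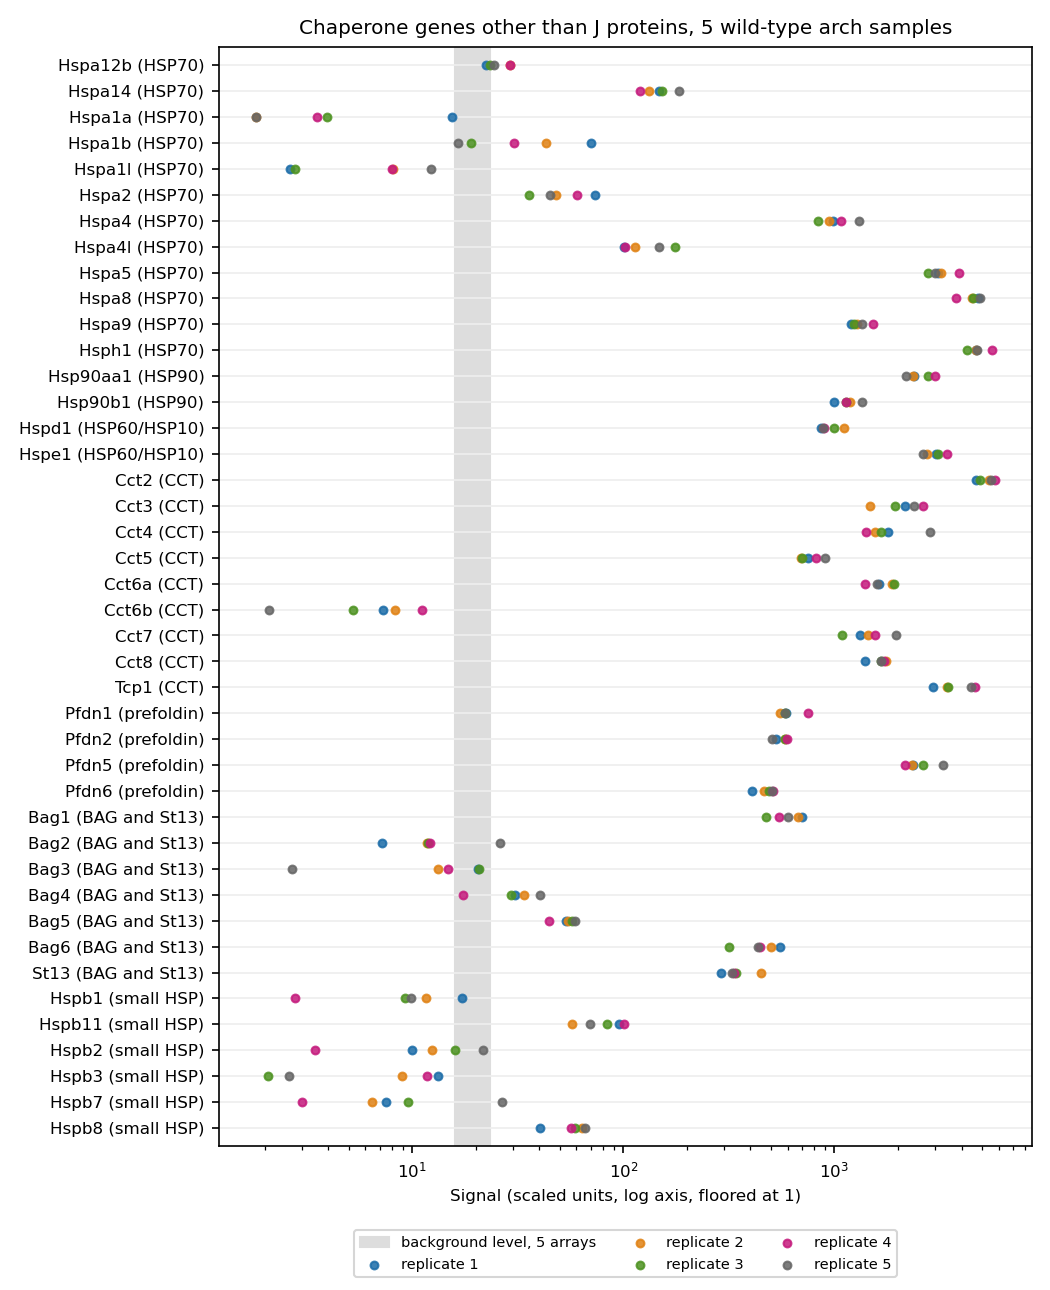
Signal of each chaperone gene other than the J proteins on a log axis, 1 point per replicate, with the background levels of the 5 arrays as a grey band. The 8 called CCT genes and the 4 prefoldin genes lie right of the band in all samples, while Hspa1a, Hspb1 and Cct6b lie left of it or at its edge.

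Hspa8, which encodes the constitutive HSC70, gave 4787, 4499, 4550, 3752 and 4876 in replicates 1 to 5, an excess over background of 7.86 ± 0.12 log2 units (SE, n = 5; limma adjusted p = 5.93e-26). Hspa5, the ER form BiP, gave 3109, 3192, 2787, 3910 and 2991 (excess 7.36 ± 0.12). For Hspa9, the mitochondrial form mortalin, the signals were 1195, 1273, 1233, 1516 and 1355 (excess 6.08 ± 0.13). All 3 lay far above the level in every sample, with standard deviations of 0.15, 0.18 and 0.14 log2 units.

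Of the stress-inducible pair, Hspa1b was called and Hspa1a was not. Hspa1a gave 15.4, 1.83, 3.97, 3.54 and 1.82, below the background level of its array in all 5 samples, and was not called (excess -2.37 ± 0.64). Hspa1b gave 70.3, 42.9, 18.9, 30.4 and 16.4, with an excess of 0.68 ± 0.29 (limma adjusted p = 0.029). Replicate 5 lay below its level and replicate 3 just above it. That call was lost without replicate 1 (adjusted p = 0.22) and without replicate 2 (adjusted p = 0.13), and the other 2 probe sets of Hspa1b were not called. The 2 genes are near-identical copies, with 296 of 300 bases the same in their promoter windows. Most of each window lies before the start, and transcripts and probes were not compared. Probe sets may not separate the 2 genes, which was not tested.

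HSP110 proteins act as exchange factors for HSP70. Hsph1, itself heat-inducible, gave 4673, 4689, 4256, 5596 and 4756 (excess 7.95 ± 0.11; limma adjusted p = 1.19e-26). Its second probe set gave 141, 128, 116, 222 and 147, and replicate 4 was highest in both. Hspa4 gave 989, 938, 836, 1070 and 1307 (excess 5.72 ± 0.14) and Hspa4l gave 101, 113, 177, 101 and 148 (excess 2.69 ± 0.18). The Hspa4 probe sets ordered the samples differently: a second gave 1139, 1057, 841, 585 and 847 and was lowest in replicate 4, where the first had its second highest value.

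Among the remaining HSP70 genes, Hspa14, which encodes a ribosome-associated form, gave 147, 132, 153, 120 and 183 (excess 2.91 ± 0.17). Hspa2, known from spermatocytes, gave 73.2, 48.2, 35.6, 60.6 and 45.0 and was called (excess 1.40 ± 0.21), while 1 of 6 germ cell markers was, the protamine gene Prm1, whose probe set also belongs to the background set. Hspa1l, another gene of the testis, gave 2.64 to 12.3 and was not called. Hspa12b, known from endothelium, gave 22.3 to 29.1, above the level in each array, and missed the threshold (limma adjusted p = 0.103).

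Both measured HSP90 genes were called. Hsp90aa1, the inducible cytosolic form, gave 2375, 2353, 2784, 2988 and 2172 (excess 7.03 ± 0.13). Hsp90b1, the ER form GRP94, gave 992, 1179, 1140, 1135 and 1353 (excess 5.90 ± 0.14). The head-to-head mitochondrial pair was called too, with Hspd1, HSP60, at 868, 1104, 1001, 893 and 879 (excess 5.61 ± 0.15) and Hspe1, its lid HSP10, at 3021, 2759, 3089, 3401 and 2617 (excess 7.26 ± 0.13). Across the samples the 2 genes did not have their highest value in the same replicate, with Hspd1 highest in replicate 2 and Hspe1 in replicate 4.

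Of the partners of HSP70 and HSP90 in a separate list, 13 of 13 measured genes were above background. Among them were Stip1, the adaptor HOP that links HSP70 to HSP90 (382 ± 78.3; mean ± SD, n = 5), the HSP90 activator Ahsa1 (382 ± 26.9), the kinase adaptor Cdc37 (124 ± 9.53) and the ubiquitin ligase Stub1, CHIP (172 ± 51.2). A list of heat shock factors held 3 measured genes and no value for Hsf1. On it Hsf2 (6.57 ± 2.75) and Hsf4 (12.5 ± 4.39) were not called, whereas Hsbp1, which encodes a small protein that binds heat shock factor 1, was (761 ± 50.5).

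All 8 genes of the somatic CCT ring were above background, and Cct6b, the subunit of the testis ring, was not, with 2.09 to 11.2. Tcp1, the alpha subunit, gave 2932, 3404, 3436, 4625 and 4448 (excess 7.59 ± 0.11; limma adjusted p = 2.69e-26). Cct2 gave 4685, 5383, 4917, 5766 and 5535, and Cct3 gave 2170, 1473, 1935, 2635 and 2387. On these probe sets, the brightest of each gene, replicates 4 and 5 held the highest 2 values. Another called probe set of Cct2 (619, 604, 604, 521 and 732) and another of Cct3 (1124, 838, 1150, 707 and 1721) were lowest in replicate 4. The remaining called probe sets of these genes had their highest 2 values in replicates 4 and 5. Cct5 (750, 695, 700, 819 and 902) and Cct7 (1325, 1439, 1082, 1554 and 1956) had their highest 2 values there as well. The other probe set of Cct7 gave 297, 312, 339, 304 and 461, with its highest 2 values in replicates 3 and 5. Cct6a gave 1627, 1884, 1908, 1393 and 1599, lowest in replicate 4, whereas its other probe set gave 1254, 1512, 1308, 1730 and 1410, highest there. Cct8 gave 1401, 1751, 1659, 1720 and 1662 and was lowest in replicate 1. Cct4 gave 1796, 1562, 1667, 1408 and 2849, lowest in replicate 4 and highest in replicate 5, and another of its probe sets gave 1543, 1526, 1473, 1684 and 2028, with replicates 4 and 5 on top. The order of the samples in the CCT genes thus depended in part on the probe set. The excess of the 8 genes ran from 5.32 to 8.08 log2 units.

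Prefoldin has 6 subunits in the mouse, of which Pfdn1, Pfdn2, Pfdn5 and Pfdn6 were among the members. Pfdn5 gave 2354, 2325, 2625, 2150 and 3272 (excess 7.03 ± 0.13). Pfdn1 gave 588, 550, 582, 753 and 583 (excess 4.98 ± 0.15), with replicate 4 above a narrow range of the others. Pfdn2 at 504 to 596 and Pfdn6 at 409 to 513 varied little, with standard deviations of 0.10 and 0.13 log2 units. The alpha-type subunit that pairs with Pfdn5 carries the symbol Vbp1 and is no member by symbol; it gave 1787 ± 255 (SD, n = 5) and was called. All 11 measured partners of CCT and prefoldin were called, the tubulin cofactor Tbca (3719 ± 486) and the phosducin-like Pdcl (629 ± 148) among them.

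BAG proteins release nucleotide from HSP70. Bag1 (706, 672, 473, 548 and 604; excess 4.94 ± 0.16) and Bag6, which shields tail-anchored proteins in the cytosol (552, 502, 317, 443 and 435; excess 4.52 ± 0.17), were lowest in replicate 3. Bag5 gave 44.7 to 59.0 (excess 1.47 ± 0.20). Bag4 gave 30.6, 33.9, 29.3, 17.4 and 40.3, with replicate 4 below its level, and its call (excess 0.60 ± 0.25; limma adjusted p = 0.022) was lost without replicate 1, 2 or 5, with adjusted p of 0.052, 0.095 and 0.059. Bag2, an inhibitor of CHIP, gave 7.22 to 26.0, and Bag3, the heat-inducible partner of Hspb8, gave 20.6, 13.3, 20.7, 14.7 and 2.70. Neither was called. St13, which holds HSP70 in its ADP state, gave 292, 447, 342, 335 and 326 (excess 4.16 ± 0.17).

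Small heat shock proteins hold unfolded clients without ATP and are abundant in muscle. Hspb1 (17.1, 11.6, 9.20, 2.80 and 9.85), Hspb2 (3.46 to 21.6), Hspb3 (2.07 to 13.2) and Hspb7 (2.99 to 26.7) were not called. Hspb8 gave 40.1, 63.6, 59.3, 56.3 and 65.7 (excess 1.54 ± 0.19) on 1 of 3 probe sets. Hspb11, which encodes the cilium transport protein IFT25, gave 95.4, 57.1, 83.6, 100.5 and 69.5 (excess 2.04 ± 0.19). Of 10 cardiac muscle markers 5 were called, with a summed signal of 373 to 559 per sample; Myh6 (3.14 ± 2.44) and Myl3 (9.93 ± 3.50) were not. Their part in the small heat shock protein signals was not tested.

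**Figure D2:**
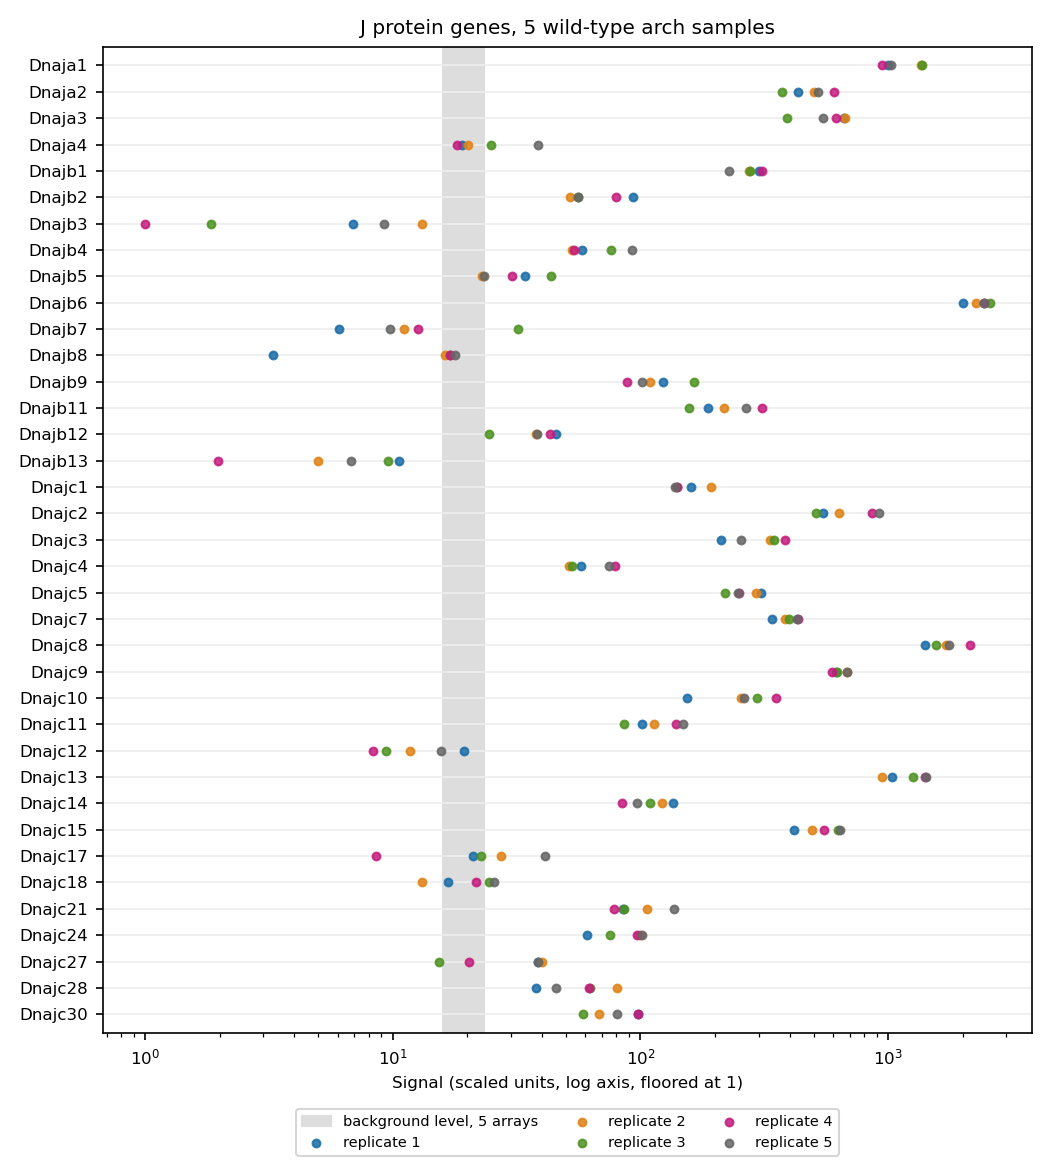
Signal of the 37 J protein genes on a log axis, ordered by class and number, 1 point per replicate, with the background levels of the 5 arrays as a grey band. Most of the 29 called genes sit right of the band and Dnajc27 spans it, while Dnajb3, Dnajb7, Dnajb8 and Dnajb13 lie mostly in it or to the left.

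J proteins choose the clients and the place of HSP70 action. In class A, Dnaja1 gave 1003, 1358, 1374, 945 and 1031 (excess 5.87 ± 0.16), Dnaja2 gave 433, 500, 373, 606 and 521, and the mitochondrial Dnaja3 gave 663, 667, 389, 615 and 547. Dnaja4, on the heat-inducible list, gave 18.1 to 38.7 and was not called (limma adjusted p = 0.28). In class B, Dnajb6, a suppressor of protein aggregation that mouse embryos need for the placenta, gave 2010, 2272, 2573, 2430 and 2428 (excess 6.92 ± 0.13). Dnajb1, the classical HSP40, gave 301, 274, 277, 310 and 229 (excess 3.84 ± 0.17), and Dnajb4 gave 57.9, 53.1, 76.4, 53.9 and 92.5 (excess 1.75 ± 0.19). Dnajb3, Dnajb7 and Dnajb8, known from testis, and Dnajb13 of the sperm axoneme were not called.

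Class C holds J proteins with special tasks, and 18 of its 21 measured genes were called. Dnajc8, tied to splicing, gave 1407, 1718, 1555, 2132 and 1768 (excess 6.46 ± 0.13). Dnajc13, an endosomal protein, gave 1033, 945, 1265, 1407 and 1425 (excess 5.96 ± 0.13). Dnajc2, which sits on the ribosome with Hspa14, gave 548, 633, 513, 864 and 916 (excess 5.13 ± 0.15), with replicates 4 and 5 above the others in its 2 called probe sets. Dnajc9, a histone chaperone, gave 594 to 685 and had the smallest standard deviation of any called member, 0.095 log2 units. The inner membrane protein Dnajc15 gave 417 to 640, and Dnajc7, which binds both HSP70 and HSP90, 339 to 431. The 3 genes not called were Dnajc12, a cochaperone of the aromatic amino acid hydroxylases, Dnajc17 and Dnajc18.

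The ER carries its own J proteins. Dnajc3, P58IPK, gave 213, 332, 345, 385 and 256 (excess 3.95 ± 0.17), lowest in replicate 1. Dnajb11 and Dnajc10 were called as well, with 158 to 309 and 154 to 353, and Dnajb9 gave 88.2 to 164. Of 10 ER members the exception was Dnajc18, at 13.1 to 25.6. All 9 measured genes of a separate ER folding list were also above background, including calreticulin, Calr (1273 ± 198), calnexin, Canx (1495 ± 233), the disulfide isomerase P4hb (2115 ± 169) and the collagen chaperone Serpinh1 (526 ± 151). In mitochondria, 6 of 7 listed partners passed, with the exchange factor Grpel1 (310 ± 37.4) and without the disaggregase Clpb (25.5 ± 7.56).

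Of 14 heat-inducible genes 10 were called, against 51 of the 65 other members. The called genes were Hsph1, Hsp90aa1, Hspe1, Hspd1, Dnaja1, Dnajb1, Hspa4l, Dnajb4, Hspb8 and Hspa1b. Hspa1a, Hspb1, Bag3 and Dnaja4 were not called. All 4 carry a 2-unit heat shock element in their windows, as do 7 of the called genes. Immediate early genes, which respond to handling of tissue, gave 5 calls of 14, namely Jun (517 ± 158), Klf6 (630 ± 106), Dusp1 (268 ± 61.2), Egr1 (104 ± 31.6) and Btg2 (40.3 ± 13.9); Fos (12.2 ± 3.98) and Junb (7.40 ± 7.94) were not called. Their summed signal was 1960, 1940, 1750, 1340 and 1410 in replicates 1 to 5. Hspa1b had its highest 2 values in replicates 1 and 2. Of the 11 heat-inducible genes with a mean above the level, the number highest in replicates 1 to 5 was 1, 1, 2, 4 and 3. These counts used the brightest probe set of each gene, and other probe sets of Hsp90aa1 were highest in other replicates. The part of dissection in these signals was not tested.

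No member passed the test for more variance between samples than genes of like signal. Of 65 members with a mean above the level, 0 passed the F test against limma's trend of variance on signal (lowest adjusted p 0.896), and 1 had an unadjusted p below 0.05, Hspa1b (variance 3.41 times the trend, unadjusted p = 0.046). Over all 7410 genes tested, 6 passed (0.0810%) and 5.55% had an unadjusted p below 0.05. The median standard deviation of the 61 called members was 0.27 log2 units, and that of all called genes was 0.30.

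**Figure D3:**
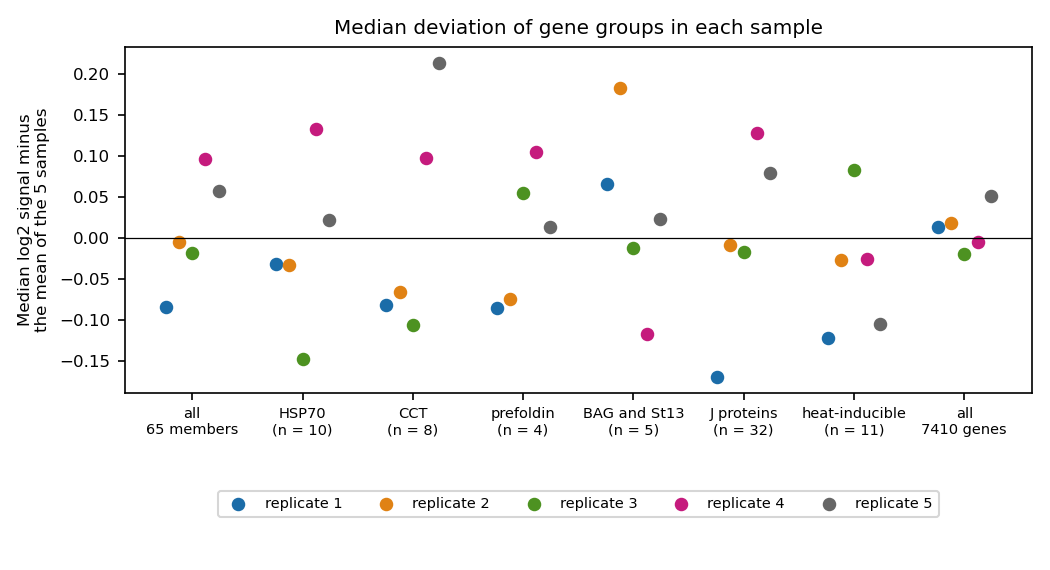
Median over genes of the log2 signal minus the mean of the 5 samples, for each replicate and gene group, over genes with a mean above the background level. All members together run from -0.08 in replicate 1 to 0.10 in replicate 4, CCT reaches 0.21 in replicate 5, and all 7410 genes run from -0.02 to 0.05.

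Over 65 members the median deviation from the mean of the samples was -0.08, -0.01, -0.02, 0.10 and 0.06 log2 units in replicates 1 to 5, compared with 0.01, 0.02, -0.02, -0.01 and 0.05 over all 7410 genes. Of these members 21 (32.3%) were highest in replicate 4 and 22 (33.8%) in replicate 5, against 21.5% and 23.9% of all genes, and 19 (29.2%) were lowest in replicate 1, against 20.9%. Replicate 2 was highest for 7 members (10.8%, against 15.7%) and lowest for 10 (15.4%, against 15.3%), and replicate 4 was lowest for 14 (21.5%, against 23.4%). J proteins stood at -0.17 in replicate 1 and 0.13 in replicate 4, and CCT at 0.10 and 0.21 in replicates 4 and 5. BAG genes with St13 ran the other way, with -0.12 in replicate 4. The 11 heat-inducible members with a mean above the level had medians of -0.12, -0.03, 0.08, -0.03 and -0.11 in replicates 1 to 5, and 4 of them were highest in replicate 4. None of these shifts was tested. Other gene lists moved as well. In replicate 4 the median was -0.53 over 9 neuron, -0.63 over 7 red cell and -0.50 over 6 immediate early genes. In replicate 5 it was 0.75 over the red cell genes, 5 of which were highest there, and 1.09 over 3 liver and yolk sac genes. Over 10 arch mesenchyme and second heart field markers it was 0.21, 0.004, -0.19, -0.11 and -0.10 in replicates 1 to 5. Over 7 cardiac muscle markers it was -0.12, 0.20, -0.44, 0.04 and 0.32. The part of these lists in the members' values was not tested.

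Probe sets of the same gene often differed. Of 45 members with 2 or more probe sets, 22 had all of them above background, 18 had some and 5 had none, the mixed ones being 37.8% among all 4956 such genes. In 8 members (17.8%, against 18.1% of all such genes) probe sets differed in call and by over 4 log2 units. These were Cct3, Cct8, Dnaja3, Dnajc2, Dnajc3, Hspa9, Hspb8 and Pfdn5. For Cct8, 1 probe set gave 1401 to 1751 and the other 0.13 to 7.25. Of 28 members with several called probe sets, 9 had the same highest replicate in all of them (32.1%, against 22.7% of 2419 genes), so which sample was highest often depended on the probe set.

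**Figure D4:**
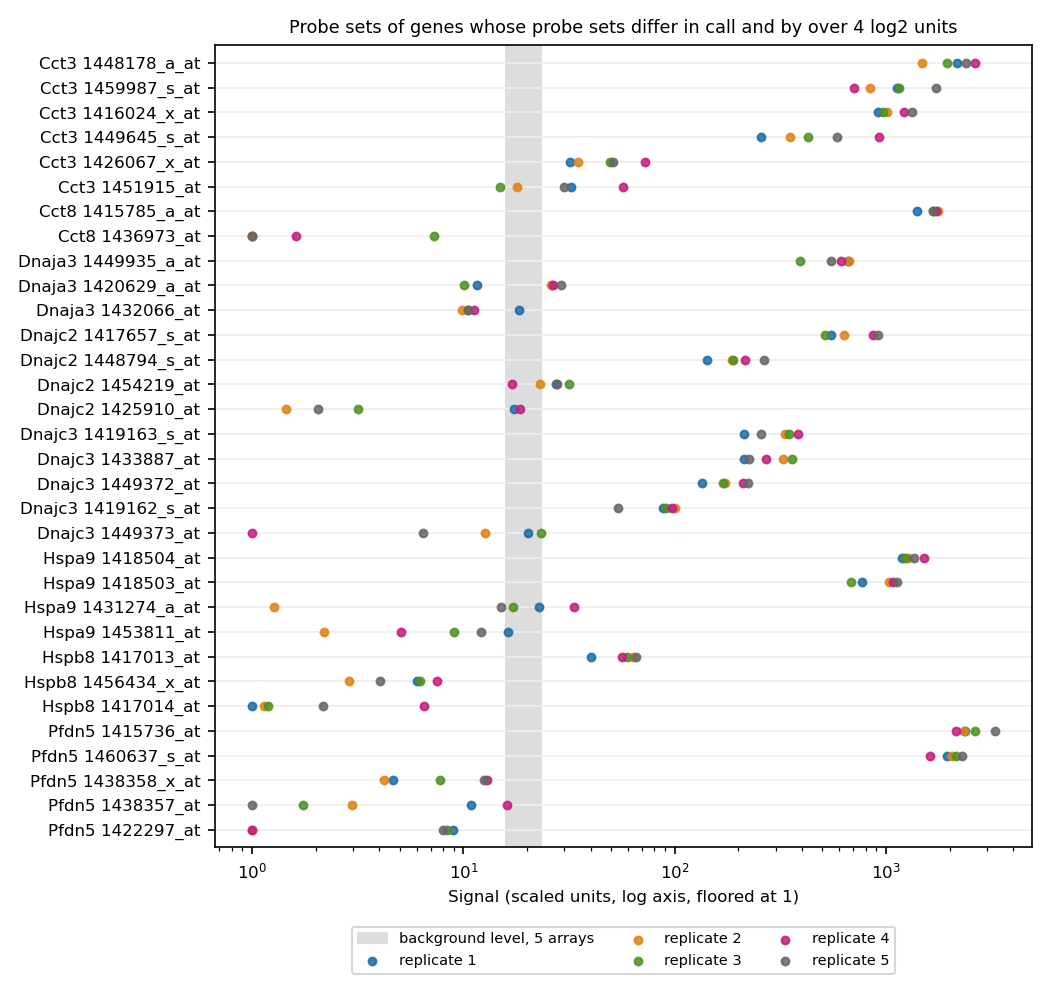
Signal of every probe set of the 8 members whose probe sets differ in call and by over 4 log2 units, on a log axis floored at 1, with 1 point per replicate and the background levels as a grey band. Hspa9 and Pfdn5 each have 2 probe sets far right of the band and 2 or 3 mostly in it or to the left.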

How the data were processed

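The deposited intensity values were used, 1 linear signal per probe set and array. GCOS (Affymetrix) made them, per the submitters' processing notes; algorithm, version and settings are not given in the sources used here. A 2% trimmed mean came to 150.1 on every array, so the deposited values had been scaled. Of 22690 probe sets, 64 controls were left out; 20380 had 1 gene, 691 several and 1555 none in the annotation used here, and symbols were updated by Entrez identifier with RefSeq for 20351. Signals were floored at 1 and taken to log2, and each gene took the values of its brightest probe set by mean log2 signal. Detection above the background level was tested with limma (version 3.58.1, R 4.3.3; eBayes with trend = TRUE and robust = TRUE, one-sided, Benjamini-Hochberg over 12393 genes or 22626 probe sets). The level leaves out casein kinases and interferon receptors, which an earlier treatment of these data had taken in by their names; the level with them is an alternative. Variance was tested by an F test against limma's trend. The 5 arrays limit the precision, and nothing shows whether the isolates came from different litters, so p-values cover no more than these samples. Each SE of an excess and its p-value use a variance that limma draws towards a trend over all genes. They are not the spread of 1 gene alone. Without trend and robust fitting, the limma adjusted p of Cct2 was 2.16e-07 instead of 6.7e-27.

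Both tests were tried on simulated data. Detection called 10.4% of genes with a seeded excess of 0.5 log2 units, 74.6% at 1 and 100% at 2. In that simulation every gene without a seeded excess was set at or below the level, whereas 54.0% of genes were called in the data. The adjustment over all genes was stricter there, so these detection rates are not those of the data. The variance test called 66% of genes given 3 times the standard deviation of the trend and 97% given 6 times. A gene not called may still give a weak signal, and a moderate extra variance can be missed. Members and lists were chosen with earlier results of these data known. Values are given by a rule for all members outside the J proteins, for heat-inducible members, for the 12 called J protein genes with the largest excess and for members whose probe sets or variance stood out, 56 genes in all. Dnajb9, Dnajb11, Dnajc10 and Dnajc18 fall outside the rule; they and the examples from the partner lists were picked with their values in view.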

Additional observations from a re-analysis of the deposited data

Results flagged for a closer look

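In 3 of 69 values tested, 1 sample lay far from the other 4, with a gap to its neighbour that was a large share of the whole range (Dixon's ratio above 0.71). Chance flags about 1 in 20 groups. Bag3 was low in replicate 5, with 2.70 against 13.3 to 20.7 elsewhere (ratio 0.781), and all its values lay near or below the background level. Cct8 was low in replicate 1, with 1401 against 1659 to 1751 (ratio 0.759). Pfdn1 was high in replicate 4, with 753 against 550 to 588 (ratio 0.79).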

How the results depend on the processing

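No paired analysis was possible because all samples form 1 group. Of 56 named genes, 34 were above background under every alternative and 11 under none; the call of the other 11 changed at least once. The number of called members was 61, and 54 to 62 under all alternatives but 1. With casein kinases and interferon receptors in the background set the level rose to 62.4 to 94.3. Then 45 of 79 members (57.0%) and 3964 genes (32.0%) were called, with 3 BAG and St13 genes, 4 class B J protein genes and 0 small heat shock protein genes. The excess turned negative there for Bag4 (-1.46), Bag5 (-0.59), Dnajb4 (-0.31), Hspa1b (-1.38), Hspa2 (-0.66), Hspb11 (-0.017) and Hspb8 (-0.52). At the 99th percentile it did so for Bag4 (-0.30) and Hspa1b (-0.21). With the mean of all probe sets it did for Bag4 (-0.049), Hspa1b (-1.08) and Hspb8 (-1.27), leaving Hspb11 as the 1 called gene with a small heat shock protein symbol. With plain _at probe sets it did for Cct8 (-3.56), Dnaja3 (-0.71) and Hspa1b (-2.69), each then read on another probe set, and Cct3 and Dnajc2 lost their call. Hspa1b also lost its call without the variance trend (adjusted p = 0.119 in limma). Of all genes, 18 passed the variance test with a floor of 16, and 4 to 14 when 1 replicate was left out; no member passed under any setting. Members called without 1 replicate numbered 58 to 62, and all genes called 6550 to 6762. For the negative values under other levels the cause was not tested.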

Other observations

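A pair of probe sets was annotated with both Dnajc19, a part of the mitochondrial import motor, and its pseudogene, and was therefore left out of the members. The first gave 260, 348, 265, 255 and 303 in replicates 1 to 5, above background (excess 3.88 ± 0.17 log2 units, SE, n = 5), and the second gave 21.8, 15.0, 15.3, 21.1 and 25.0 and was not called. The liver and yolk sac markers Afp and Apoa2 were highest in replicate 5, with Afp at 198 there and 2.21 to 20.7 elsewhere.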
